A study of Mus musculus with 6 samples.

Results

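The genes for the proteins of the cytosolic ribosome were followed in mouse fibroblasts with and without PME-1. They were taken as every row whose symbol is Rpl or Rps and a number, with or without a final a or x, together with Rplp0, Rplp1 and Rplp2. That gave 75 of the 53762 rows of the count files, 46 for the large and 29 for the small ribosomal subunit. All 75 were found by name in the GENCODE M21 annotation of GRCm38 and all 75 passed the filter on low counts, with at least 674 counts in every library.

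RNA was sequenced from immortalized mouse embryonic fibroblasts (MEFs), a cultured connective tissue cell, in 3 wild-type (WT) and 3 PME-1 knockout (KO) libraries. Both groups were kept in high-glucose DMEM with fetal bovine serum and collected 24 hours after seeding, so the groups differ by genotype only as far as the labels say. The labels give neither how the knockout was made, nor how many clones or mouse strains lie behind the lines, nor that the replicates were separate cultures. The p-values therefore refer to the spread among these libraries alone, part or all of which may be technical.

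A eukaryotic ribosome is built from ribosomal RNA and a fixed set of proteins, most of them needed in equal numbers. The small subunit reads the message and the large subunit joins the amino acids and holds the tunnel through which the new chain leaves. Messages for ribosomal proteins begin with a run of pyrimidines, the 5′ terminal oligopyrimidine tract (TOP), through which the kinase mTOR and the protein LARP1 control their translation. Mammalian genomes also carry a large number of processed pseudogenes of these genes, DNA copies of their messages, so a read can match several places. PME-1 takes a methyl group off the catalytic part of the phosphatase PP2A.

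Ppme1, the gene of PME-1, stood at 78.4, 80.7 and 86.6 CPM (the library-scaled count, with TMM factors) in WT libraries 1 to 3 and at 18.2, 14.9 and 18.9 CPM in KO libraries 1 to 3. It fell 4.72-fold in KO (log2 fold change -2.24, SE 0.13, adjusted p = 0.000563 by edgeR's quasi-likelihood test with Benjamini-Hochberg adjustment, the test behind every adjusted p of a single gene here unless another tool is named). Total counts ranged from 34450993 to 44116310 per library. The libraries of a group were not equally alike: the chi-square per degree of freedom over genes was 13.5 between WT 2 and WT 3 and 14.0 between KO 2 and KO 3, but 127 to 141 between WT 1 and the other WT libraries and 132 to 154 between KO 1 and the other KO libraries. WT 1 was nearer to KO 2 and KO 3 (90.4 to 99.8) than to its own group. Of 10 fibroblast markers all were measured, with summed levels of 16921 to 23132 CPM in WT and 13906 to 16246 CPM in KO, and Col1a1, Pdgfrb and S100a4 fell in KO. The highest log2 fold change among them was that of Thy1, 1.49 (adjusted p = 0.134), with separate groups; DESeq2 called 1 fibroblast marker higher and 4 lower. Of 7 epithelial markers Krt5 and Krt14 were at 0 in every library, Krt8 and Krt18 rose, and the sum was 8.24 to 31.8 CPM in WT and 126 to 144 CPM in KO. Of 5 endothelial markers Tek rose and the sum was 0.785 to 2.08 CPM in WT and 2.203 to 3.44 CPM in KO; of 6 neural markers Sox2 rose and Map2 fell, with sums of 135 to 249 CPM in WT and 212 to 474 CPM in KO. Of 6 blood, 5 skeletal muscle and 4 pluripotency markers, 4, 3 and 2 were at 0 in every library and none passed. The part of these markers in the ribosomal protein values was not tested.

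Ribosomal protein genes took 3.81% to 4.53% of all counts in WT and 4.82% to 5.20% in KO. After scaling, the 75 genes together held 47976, 41085 and 38552 CPM in WT 1 to 3 and 47120, 48635 and 52572 CPM in KO 1 to 3. The WT mean of 42538 ± 4877 CPM compares with a KO mean of 49442 ± 2814 CPM (SD, n = 3 each), but the groups overlapped, because WT 1 was higher than KO 1. The overlap came with the scaling: as shares of all counts, every KO library was above every WT library. In bulk RNA, fewer cells of a type and less RNA per cell cannot be told apart, and a CPM value is a share of the library rather than an amount per cell. The order of the libraries recurred from gene to gene: WT 1 was the highest WT library for 70 of the 75 genes, WT 3 was the lowest for 74, KO 3 was the highest KO library for 57 and KO 1 the lowest for 48. WT 1 stood above KO 1 for 40 genes, while KO 2 and KO 3 both stood above WT 2 and WT 3 for 66.

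**Figure D1:**
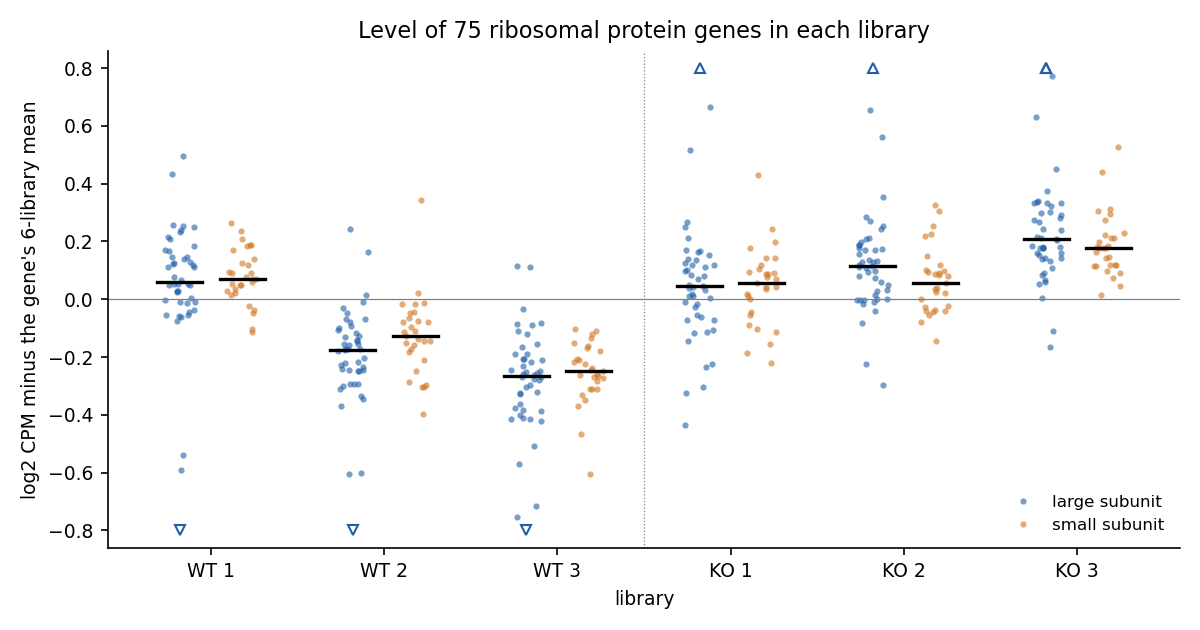
Each point is 1 ribosomal protein gene, placed by its log2 CPM in a library minus its mean over the 6 libraries (vertical axis), with large subunit genes in blue, small subunit genes in orange and black bars at the medians; open triangles mark genes beyond 0.8 on that scale. In both subunits the medians of WT 1 and of the KO libraries lie above 0 and those of WT 2 and WT 3 below it.

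In the comparison of KO with WT, 3 of the 75 genes rose, Rpl30, Rpl17 and Rplp0, and 0 fell at an adjusted p under 0.05. Over all 15223 genes tested, 3.55% rose and 3.86% fell, so the share of ribosomal protein genes that passed was near the background. The direction was more uniform than the calls: 70 of 75 log2 fold changes were above 0, with a median of 0.22 and quartiles of 0.12 and 0.31. Over all genes tested 51.1% were above 0 with a median of 0.01, and among the 2573 genes averaging 100 CPM or more 42.9% were above 0 with a median of -0.05. Without an adjustment for multiple tests, 18 of the 75 genes had a p under 0.05, which is 24% against 22.2% of all genes. The 3 WT values lay wholly below the 3 KO values for 25 genes (33.3% against 14.6% of all genes) and wholly above them for 2 (Rpl4 and Rplp1, against 15.4% of all genes). With WT 1 and KO 1 both left out, 57 genes were called higher and 2 lower, where 23.3% and 24.6% of all genes were called. DESeq2 called 10 higher and 2 lower, against 7.85% and 7.96% of all genes. Scaling by upper quartiles called 4 higher (3.98% of all genes), library sizes alone called 6 (3.86%), and leaving out WT 1 called 8 (3.5%). Leaving out WT 2, WT 3, KO 1, KO 2 or KO 3 called 3 each time, where 1.25%, 1.09%, 3.08%, 1.14% and 1.13% of all genes were called higher. A fit with the replicate number as a block called 0, where 0.0197% of all genes were called higher.

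Large and small subunit genes differed in the same direction. The 46 large subunit genes held 29778, 25213 and 23785 CPM in WT 1 to 3 and 29202, 30518 and 32980 CPM in KO 1 to 3. The 29 small subunit genes held 18198, 15873 and 14768 CPM in WT 1 to 3 and 17917, 18116 and 19592 CPM in KO 1 to 3. In both subunits WT 1 was above KO 1, and the remaining WT libraries were below all KO libraries. The median log2 fold change was 0.25 over the large subunit, with 42 of 46 above 0 and 3 called, and 0.18 over the small subunit, with 28 of 29 above 0 and 0 called, of which 4 had an unadjusted p under 0.05; DESeq2 called 2 small subunit genes. Values did not overlap and were higher in KO for 19 large subunit genes (41.3%) and 6 small subunit genes (20.7%), against 14.6% of all genes. The ratio of summed large to summed small subunit CPM was 1.64, 1.59 and 1.61 in WT 1 to 3 and 1.63, 1.68 and 1.68 in KO 1 to 3, a mean of 1.61 ± 0.024 against 1.67 ± 0.031 (SD, n = 3 each). The groups overlapped in this ratio too, since KO 1 fell just below WT 1. With 3 libraries against 3, an exact permutation test of a single value cannot give a p below 0.1, and none is given for sums over genes.

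**Figure D2:**
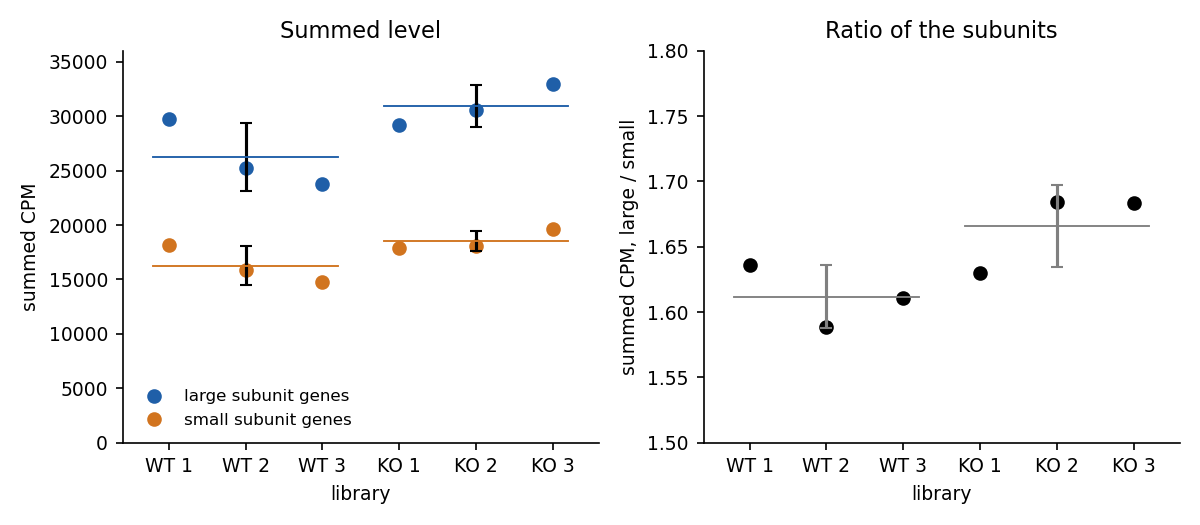
Left, summed CPM of the 46 large and 29 small subunit genes in each library (points), with group means (lines) and SD (bars); right, the ratio of the sums on an axis that starts at 1.5. In both subunits WT 1 lies at the level of KO 1, and KO 2 and KO 3 have the highest ratios, 1.68 each.

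**Figure D3:**
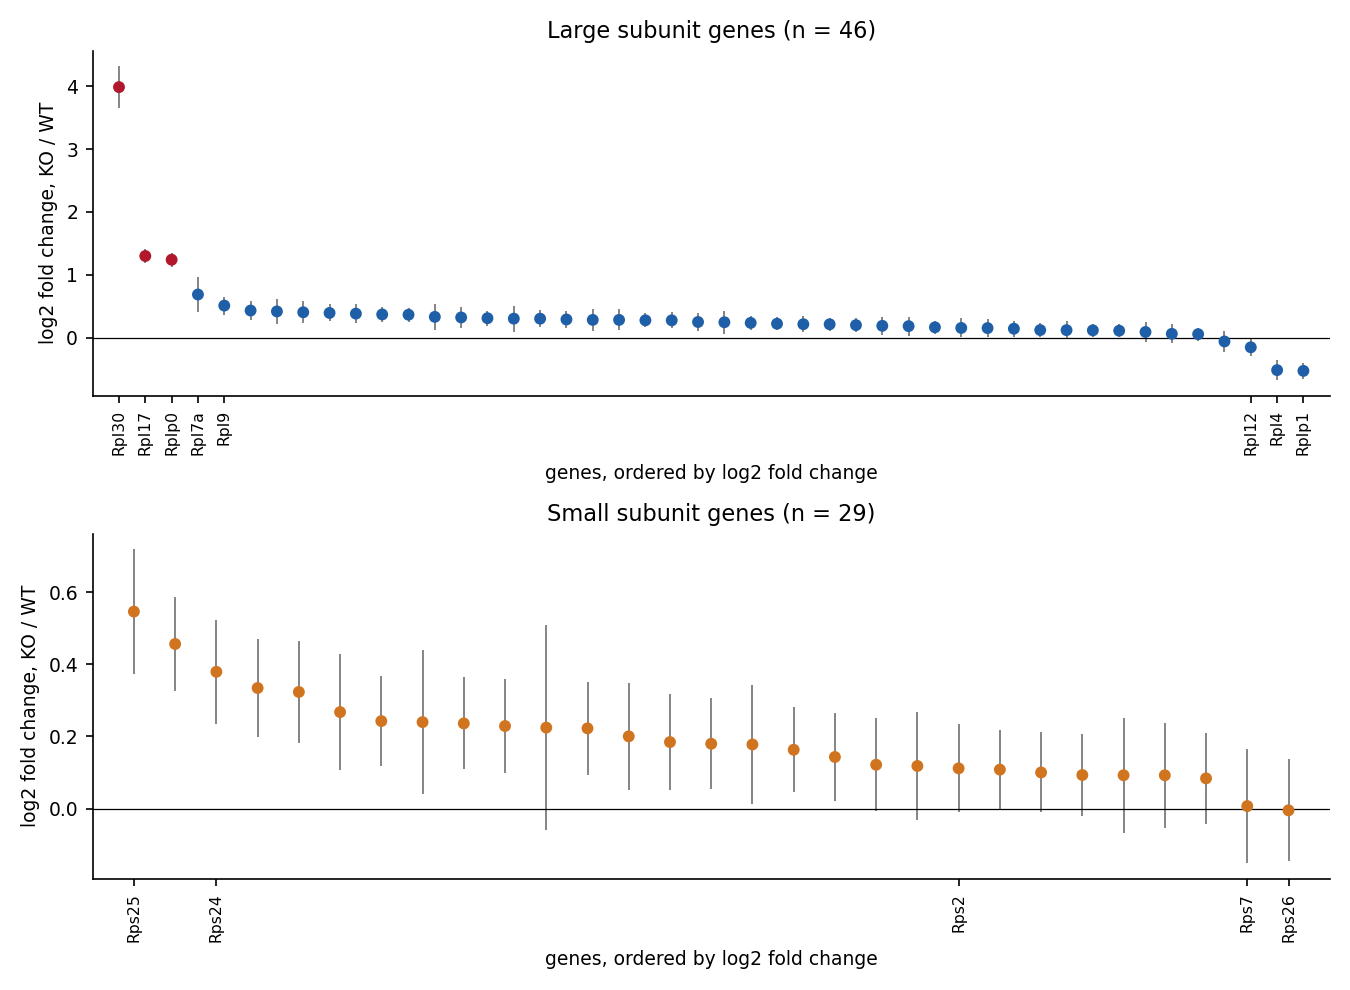
Log2 fold change of each ribosomal protein gene in KO against WT (points) with its standard error (bars), ordered from high to low within the large subunit (upper panel) and the small subunit (lower panel, on a narrower vertical axis), with some of the genes that the text describes labelled. Red points passed the adjusted threshold: Rpl30, Rpl17 and Rplp0; Rpl4 and Rplp1 lie lowest and did not pass it.

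Rpl30 changed most of all 75. Its protein sits where the subunits meet and in other species binds its own transcript. The gene (ENSMUSG00000058600.13) lies at chr15:34440505-34443640 on the minus strand of GRCm38. It stood at 32.4, 18.7 and 15.5 CPM in WT 1 to 3 and at 288, 342 and 425 CPM in KO 1 to 3. Every KO library was higher than every WT library, by 15.9-fold between the groups (log2 fold change 3.99, SE 0.33, adjusted p = 0.00162). In WT it was the lowest of the 75 genes in CPM.

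The row of the processed pseudogene Gm12191 moved the other way. Gm12191 lies at chr11:49678710-49679057 on the minus strand and stood at 250.4, 195 and 193 CPM in WT 1 to 3 and at 24.4, 44.0 and 19.4 CPM in KO 1 to 3 (log2 fold change -2.86, SE 0.32, adjusted p = 0.00451). Rpl30-ps9, on chromosome X, fell as well, from 45.0, 37.9 and 36.6 CPM to 5.64, 7.999 and 2.56 CPM (log2 fold change -2.88, SE 0.39, adjusted p = 0.00922). Over the 348 coding bases, Gm12191 differs from Rpl30 by 1 substitution, G96A, counted from 1 at the first base of the start codon, with the base of the gene first. The same substitution is present in all 5 tested pseudogene rows of the family, the 2 that fell and the 3 that did not pass (Rpl30-ps1, Rpl30-ps8 and Rpl30-ps10), so it does not set the falling rows apart. Rpl30-ps10 (30.7, 25.4 and 22.9 CPM in WT, 22.1, 33.7 and 12.5 CPM in KO) did not pass the test (log2 fold change -0.21, adjusted p = 0.781). The sequences are shown because this base is the only difference between the gene and Gm12191 over the coding bases. The 60 bases from base 66 of the coding sequence in GENCODE M21 read as follows, with the differing base in capitals.
Rpl30: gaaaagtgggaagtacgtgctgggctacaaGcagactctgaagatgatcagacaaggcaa
Gm12191: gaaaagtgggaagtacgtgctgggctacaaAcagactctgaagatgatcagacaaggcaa
Rpl30-ps9: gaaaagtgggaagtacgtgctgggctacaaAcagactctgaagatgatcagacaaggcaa
Rpl30-ps10: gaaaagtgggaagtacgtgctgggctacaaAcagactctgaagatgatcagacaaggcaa

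Pseudogene rows were then joined to the gene their sequence matches best, and the joined rows were tested in a fit of all genes. The Rpl30 family, the gene with 22 such rows, held 375, 288 and 277 CPM in WT 1 to 3 and 354, 446 and 467 CPM in KO 1 to 3. The sum differed by a log2 fold change of 0.43 (SE 0.17, adjusted p = 0.198), and WT 1 was above KO 1. Within the family the counts stood at different rows: the row of the gene took 8.66%, 6.49% and 5.59% of them in WT 1 to 3 and 81.4%, 76.7% and 90.9% in KO 1 to 3. When only rows named after Rpl30 were joined, which leaves Gm12191 out, the log2 fold change was 1.98 (SE 0.19, adjusted p = 0.0029). In that fit 2 of the 75 genes were called higher, Rpl30 and Rplp0, against 3.59% of all rows.

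Rplp0 encodes the base of the stalk, the arm of the large subunit that calls in elongation factors, and is in wide use as a reference gene for RNA measurements. It lies at chr5:115559467-115563727 on the plus strand (ENSMUSG00000067274.10). It stood at 1198, 1147 and 1061 CPM in WT 1 to 3 and at 2767, 2574 and 2701 CPM in KO 1 to 3, and the groups did not overlap. The rise was 2.36-fold (log2 fold change 1.24, SE 0.11, adjusted p = 0.00213). Gm8730, at chr8:102864845-102865798 on the minus strand, stood at 1011, 980.4 and 898 CPM in WT 1 to 3 and at 22.1, 14.2 and 12.4 CPM in KO 1 to 3 (log2 fold change -5.89, SE 0.27, adjusted p = 0.000298). Gm9625, at chr13:67810246-67811200 on the plus strand, stood at 179, 173 and 153 CPM in WT and at 3.44, 1.08 and 2.76 CPM in KO (log2 fold change -6.12, SE 0.42, adjusted p = 0.0011). Of the 5 pseudogene rows of this family that were tested, 4 fell and 0 rose. In WT the row of the gene and the row of Gm8730 thus held about equal counts, and in KO the pseudogene row was close to empty.

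Over the 954 bases of the coding sequence, Gm8730 differs from Rplp0 by 12 substitutions and Gm9625 by 24. T72C, G138C, T192C, A390G, A393G, T603G, A696G and A784G are among those that both carry. Bases 61 to 150 of the coding sequence are shown because they hold differences shared by Gm8730 and Gm9625 and others carried by only 1 of these copies. Capitals stand in the gene at each position where either copy differs and in a copy at its own differences.
Rplp0: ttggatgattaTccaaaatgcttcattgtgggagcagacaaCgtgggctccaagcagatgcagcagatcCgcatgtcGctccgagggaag
Gm8730: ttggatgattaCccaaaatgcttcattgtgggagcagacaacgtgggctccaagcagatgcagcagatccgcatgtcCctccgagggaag
Gm9625: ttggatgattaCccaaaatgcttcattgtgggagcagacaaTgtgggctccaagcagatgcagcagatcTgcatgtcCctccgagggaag
T72C and G138C stand in both copies, C102T and C130T in Gm9625 and not in Gm8730. T72C and G138C occur in 3 of the 4 rows that fell, and Gm6278 does not cover these bases. Both also occur in Rplp0-ps1, the tested row that did not pass (log2 fold change -3.53). By log2 fold change Rplp0-ps1 fell further than Gm14165 (-3.26) and Gm6278 (-1.85), which passed. Every tested pseudogene row of the family had a log2 fold change below 0. The family thus cannot show whether these substitutions mark the falling rows. The joined family of 13 pseudogene rows and Rplp0 held 2407, 2318 and 2126 CPM in WT 1 to 3 and 2797, 2592 and 2721 CPM in KO 1 to 3. All 3 KO sums were above all 3 WT sums, yet the difference did not pass the test (log2 fold change 0.25, SE 0.11, adjusted p = 0.26). The row of the gene held 49.8%, 49.5% and 49.9% of the family in WT and 98.9%, 99.3% and 99.3% in KO.

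Rpl17 encodes a protein at the exit of the tunnel and lies at chr18:74998558-75003381 on the plus strand (ENSMUSG00000062328.8). It stood at 106, 105 and 94.8 CPM in WT 1 to 3 and at 228, 252 and 273 CPM in KO 1 to 3, without overlap. The rise was 2.46-fold (log2 fold change 1.30, SE 0.12, adjusted p = 0.00198). Of its 9 tested pseudogene rows 0 passed by edgeR, 1 was called by DESeq2 and 1 had an unadjusted p under 0.05. Rpl17-ps10 held 234, 238 and 232 CPM in WT 1 to 3 and 191, 98.5 and 109 CPM in KO 1 to 3, lower in all 3 KO libraries (log2 fold change -0.82, SE 0.25, adjusted p = 0.113), while Rpl17-ps3 held 138, 133 and 122 CPM in WT and 135, 122 and 130.4 CPM in KO. The joined family held 580, 564 and 526 CPM in WT 1 to 3 and 668, 553 and 598 CPM in KO 1 to 3, and its log2 fold change was 0.13 (SE 0.12, adjusted p = 0.593). The share at the row of the gene was 18.3%, 18.7% and 18.02% in WT and 34.2%, 45.5% and 45.7% in KO. With families joined by sequence, 0 of the 75 genes were called by edgeR, where 3.6% of all rows were called higher. An unadjusted p under 0.05 was found for 16 of the 75, against 3337 of all 14945 rows in that fit.

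**Figure D4:**
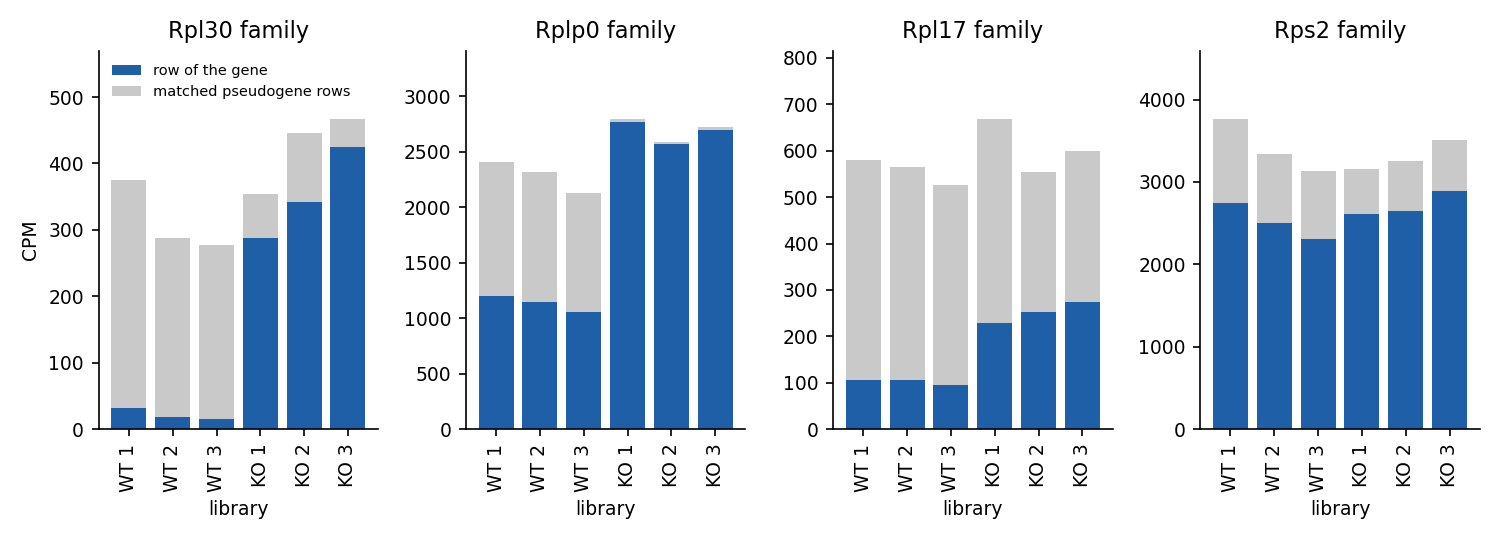
Stacked bars show, for each library, the CPM at the row of the gene (blue) and at all pseudogene rows matched to it by sequence (grey) for 4 families. For Rpl30 the share of the blue part goes from 5.59% to 8.66% in WT to 76.7% to 90.9% in KO, and for Rplp0 from about 49.8% to about 99.2%, while the heights of whole bars differ less.

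Shares within a family were examined for all 75 genes. In all, 1687 pseudogene rows matched 1 of the genes by sequence, of which 972 were at 0 in every library and 278 were tested. Their sum was 7351, 6338 and 6045 CPM in WT 1 to 3 and 5281, 5256 and 5373 CPM in KO 1 to 3, so the sum was lower in every KO library. Of the 278, 13 fell (4.68% against 3.86% of all genes) and 2 rose (0.719% against 3.55%). The median log2 fold change over the 278 was 0.24, close to the 0.22 of the genes themselves, so the lower sum was not shared by the typical row. The 13 belong to 3 families, Rpl30 (2 rows), Rplp0 (4 rows) and Rps2 (7 rows), and the 2 that rose, Rpl9-ps4 and Gm5451, belong to Rpl9. For the middle one of the 75 genes, the row of the gene held 95.3% of its family in WT and 95.7% in KO. The share moved by more than 10 percentage points for 4 genes: Rpl30, Rplp0, Rpl17 and Rpl7a. It was higher without overlap in KO for 7 genes and lower without overlap for 6.

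Rps2, at the entry of the message into the small subunit, had pseudogene rows that fell while the gene did not pass the test. It held 2741, 2497 and 2305 CPM in WT 1 to 3 and 2611, 2652 and 2886 CPM in KO 1 to 3 (log2 fold change 0.11, SE 0.12, adjusted p = 0.655). Of its 26 tested pseudogene rows 7 fell and 0 rose. Rps2-ps13 went from 192, 156 and 165 CPM to 95.6, 116 and 116 CPM (log2 fold change -0.65, SE 0.13, adjusted p = 0.0334), and Gm6139 from 141, 118 and 119 CPM to 62.5, 74.9 and 74.6 CPM (log2 fold change -0.83, SE 0.13, adjusted p = 0.0123). The share at the row of the gene was 72.8%, 74.8% and 73.5% in WT and 82.6%, 81.4% and 82.2% in KO. T60A, T204C and T756C occur in all 7 rows that fell. Among the other tested rows that cover the base they occur in 16 of 16, 17 of 18 and 19 of 19. These 3 substitutions therefore do not set the 7 rows apart. Some others were uneven, picked here after the comparison was seen. C444T occurs in 4 of the 7 and in 0 of the 18 others that cover it. G810T occurs in 0 of the 7 and in 9 of the 19 others. No substitution was in all 7 rows and absent from the others. Bases 41 to 100 are shown as an example, with capitals placed as for Rplp0; the substitutions are T60A in both copies and A84G in Rps2-ps13.
Rps2: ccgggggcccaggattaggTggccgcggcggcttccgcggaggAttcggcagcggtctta
Rps2-ps13: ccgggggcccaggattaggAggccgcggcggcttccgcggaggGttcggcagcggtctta
Gm6139: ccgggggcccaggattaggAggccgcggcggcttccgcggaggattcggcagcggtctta

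Rpl7a had the highest log2 fold change among the genes that did not pass, 0.69 (SE 0.28, adjusted p = 0.207). It stood at 426, 350.3 and 297 CPM in WT 1 to 3 and at 379, 565 and 783 CPM in KO 1 to 3, so KO 1 lay within the WT range and KO 3 far above it. Its row held 35.3%, 37.0% and 33.1% of the family in WT and 37.5%, 45.5% and 59.4% in KO. The joined family of 150 pseudogene rows and the gene gave a log2 fold change of 0.23 (SE 0.17, adjusted p = 0.486). Rps27a, a fusion of ubiquitin with a small subunit protein, differed within groups: 215, 293 and 152 CPM in WT and 198, 240.3 and 333 CPM in KO, with Rps27a-ps2 at 108, 34.2 and 82.8 CPM in WT and 104, 113 and 101 CPM in KO. WT 2, highest in Rps27a among WT libraries, was lowest in Rps27a-ps2. Rps26-ps1 held 74.6 CPM in KO 1 against 3.82 to 13.01 CPM in the other libraries. Rps26 itself was lowest in KO 1, and its row held 89.7% of its family there against 98.1% to 99.4% in the other libraries. The library KO 1 differed from KO 2 and KO 3 in the Rpl17 and Rps26 families, while the share of Rpl7a rose stepwise from KO 1 to KO 3.

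Genes were next read by their place in the ribosome. Of the 4 stalk and GTPase centre genes (Rplp0, Rplp1, Rplp2 and Rpl12), 1 rose by edgeR, Rplp0, and 0 fell; DESeq2 called Rplp1 lower. Rplp1, which pairs with Rplp2 on the stalk, had the lowest log2 fold change of all 75: it stood at 1817, 1591 and 1453 CPM in WT 1 to 3 and at 1073, 1095 and 1199.9 CPM in KO 1 to 3, without overlap (log2 fold change -0.53, SE 0.13, adjusted p = 0.0583). Rplp2 stood at 502, 417 and 402 CPM in WT and 584, 479 and 551 CPM in KO, with overlap (log2 fold change 0.29, SE 0.14, adjusted p = 0.282). Rpl12, which holds the stalk base, stood at 1064, 902 and 874 CPM in WT and 760.2, 845 and 948 CPM in KO (log2 fold change -0.15, SE 0.14, adjusted p = 0.578). Its sign turned to 0.01 without WT 1 and KO 1. Partners of the stalk thus had log2 fold changes on both sides of 0.

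Rpl5 and Rpl11, which with 5S ribosomal RNA bind Mdm2 when ribosome assembly fails, had KO values that lay above all WT values. Rpl11 stood at 571, 451 and 413 CPM in WT and at 607, 629 and 697 CPM in KO (log2 fold change 0.43, SE 0.15, adjusted p = 0.154). Rpl5 stood at 831, 715 and 702 CPM in WT and at 882, 939 and 964 CPM in KO (log2 fold change 0.31, SE 0.12, adjusted p = 0.186). Neither passed the test by edgeR or DESeq2, and both had an unadjusted p under 0.05. Without WT 1, Rpl11 was called. Among Trp53, Mdm2, Mdm4 and Cdkn1a, the genes of the p53 response, 0 of 4 passed by edgeR (1 at an unadjusted p under 0.05, 1 by DESeq2), and Cdkn1a, the p53 target that stops the cell cycle, stood at 37.3, 85.6 and 80.8 CPM in WT 1 to 3 and at 103, 32.6 and 31.4 CPM in KO 1 to 3.

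Of the 8 genes around the peptide exit tunnel (Rpl4, Rpl17, Rpl19, Rpl23a, Rpl26, Rpl31, Rpl35 and Rpl39), 1 rose by edgeR, Rpl17, and 0 fell, with a median log2 fold change of 0.17. DESeq2 called 3 of them higher and 1 lower, Rpl4, and 4 had an unadjusted p under 0.05. Rpl4, which lines the tunnel, stood at 2629, 2089 and 2021 CPM in WT 1 to 3 and at 1379.8, 1597 and 1731 CPM in KO 1 to 3, without overlap (log2 fold change -0.52, SE 0.16, adjusted p = 0.105). Rpl26, which binds at the tunnel exit, stood at 388, 309.9 and 305 CPM in WT and at 416, 429.9 and 471 CPM in KO (log2 fold change 0.39, SE 0.13, adjusted p = 0.144), and DESeq2 called it higher (adjusted p = 0.0494). Rpl39, a small protein of the tunnel wall, was close between the groups at 219.6, 208 and 183 CPM against 233, 211 and 219.6 CPM. The 5 genes listed for the surroundings of the peptidyl transferase centre or for tRNA contact were Rpl3, Rpl8, Rpl10, Rpl10a and Rpl13a. They had a median of 0.22 with 0 called by edgeR (1 at an unadjusted p under 0.05, 1 called by DESeq2). KO values lay above all WT values for 4 of them, as they did for 14.6% of all genes. Rpl3, whose protein reaches closest to the centre, stood at 1072, 951 and 928 CPM in WT and at 1209, 1271 and 1319 CPM in KO (log2 fold change 0.36, SE 0.11, adjusted p = 0.117). DESeq2 and the fit on library sizes alone called it.

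Other large subunit genes with separate groups were Rpl9 and Rpl22. Rpl9, near the stalk base, stood at 477, 368 and 357 CPM in WT and at 566, 546 and 599 CPM in KO (log2 fold change 0.51, SE 0.14, adjusted p = 0.0879). DESeq2 called it higher (adjusted p = 0.0126). Its pseudogene Rpl9-ps4 rose, from 31.2, 30.4 and 28.8 CPM to 43.1, 42.1 and 45.0 CPM (log2 fold change 0.53, SE 0.10, adjusted p = 0.0288). Rpl22, which is not essential for the ribosome and whose loss in mice alters T cell development, stood at 238, 208 and 204 CPM in WT and at 274, 265 and 301 CPM in KO (log2 fold change 0.37, SE 0.11, adjusted p = 0.113), and DESeq2 called it higher (adjusted p = 0.0198). Rpl22l1, its paralog, stood at 50.5, 55.4 and 55.6 CPM in WT and at 69.3, 59.9 and 61.7 CPM in KO (adjusted p = 0.25), in the same direction.

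In the small subunit, 5 of the 6 genes listed for the entry side of the message were measured under these symbols (Rps2, Rps3, Rps9, Rps15 and Rps23), with a median of 0.11 and 0 called by edgeR, by DESeq2 or at an unadjusted p under 0.05. Rps23, a protein of the decoding centre, stood at 681, 569.7 and 524 CPM in WT and at 702, 699 and 818 CPM in KO (log2 fold change 0.32, SE 0.14, adjusted p = 0.243). The 4 genes of modified or signalling proteins (Rps6, Rps10, Rps20 and Rps27a) had a median of 0.20 with 0 called by edgeR or DESeq2 and 1 at an unadjusted p under 0.05. Rps26, which touches the message upstream of the start codon, had the lowest value of the small subunit: 865, 722 and 709 CPM in WT and 668, 779 and 841 CPM in KO (log2 fold change -0.005, SE 0.14, adjusted p = 0.989). Its direction turned under 11 of the alternatives. Rps7 stood at 539.9, 455 and 387 CPM in WT and at 424, 445 and 519.6 CPM in KO (log2 fold change 0.007), and its sign turned under 4 of them. Rps15, of the decoding site, came next, at 743, 663 and 592 CPM in WT and 711, 667 and 741 CPM in KO (log2 fold change 0.08, SE 0.13, adjusted p = 0.759). Rps14 was set apart by 1 library, with 697, 705 and 674 CPM in WT and 1015, 681 and 802 CPM in KO, where KO 1 was the highest. Rps6, which S6 kinases phosphorylate downstream of mTOR, stood at 724, 603 and 595 CPM in WT and at 723, 835 and 867 CPM in KO (log2 fold change 0.33, SE 0.13, adjusted p = 0.207), with WT 1 and KO 1 about equal.

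Rps25 and Rps24 were among the small subunit genes with the highest fold changes. Rps25, used by viral internal ribosome entry sites, stood at 382, 284 and 271 CPM in WT 1 to 3 and at 397, 462 and 507 CPM in KO 1 to 3 (log2 fold change 0.55, SE 0.17, adjusted p = 0.119). Rps24 stood at 615, 487 and 484 CPM in WT and at 619, 702 and 742 CPM in KO (log2 fold change 0.38, SE 0.14, adjusted p = 0.182), with KO 1 only just above WT 1. Neither passed by edgeR with all libraries, although the groups did not overlap in either. Rps25 was called by DESeq2 (adjusted p = 0.031) and by edgeR without WT 1 (adjusted p = 0.0311). Of 16 genes mutated in Diamond-Blackfan anaemia, an inherited failure of red cell production, 0 passed by edgeR (4 at an unadjusted p under 0.05, 1 called by DESeq2), 6 had separate groups with KO higher (14.6% of all genes did), and the median was 0.20.

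Rpl4 and Rplp1 lie near each other on chromosome 9. Rplp1 lies at chr9:61913284-61914542 (minus strand) and Rpl4 at chr9:64173375-64178666 (plus strand). Of the 178 tested genes between 55 and 75 Mb of chromosome 9, 71 fell and 3 rose in KO, a share of 39.9% lower against 3.88% of all tested genes with 1 place in the annotation, and the median log2 fold change was -0.75. The stretch was taken with earlier results of these data known, so its share is a description and no independent support. In windows laid evenly along the chromosome, 50.6% fell between 60 and 70 Mb, which holds both genes. In the windows beside it, 20.8% fell between 50 and 60 Mb and 24.2% between 70 and 80 Mb. The part of position in the values of Rpl4 and Rplp1 was not tested. The other ribosomal protein genes of chromosome 9 lie outside the stretch. Rps25 lies between 40 and 50 Mb, where 3 of 76 tested genes rose and 0 fell and the median was 0.32. Rpl29 lies between 100 and 110 Mb and Rpl14 between 120 and 130 Mb. Rpl29 stood at 399, 316 and 315 CPM in WT and at 270.4, 351 and 366 CPM in KO (log2 fold change -0.06). Both Rplp1 and Rpl4 were called lower by DESeq2 (adjusted p = 0.00175 and 0.0215) and without WT 1 and KO 1 (adjusted p = 0.000178 and 0.000286). Over all alternatives the adjusted p ran up to 0.382 for Rplp1 and up to 0.469 for Rpl4. The 4 X-linked genes, Rps4x, Rpl10, Rpl36a and Rpl39, had log2 fold changes between 0.12 and 0.21, and 0 were called.

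Levels of different genes were compared per kilobase of transcript. The highest were Rpl41, Rplp1 and Rps2. Rpl41, whose coding sequence is among the shortest of any gene at 75 bases, stood at 2648 ± 375 CPM per kb in WT and 3016 ± 240.4 CPM per kb in KO (SD, n = 3 each). Rplp1 stood at 3248 ± 368 in WT and 2250.1 ± 136 CPM per kb in KO, so it was the highest in WT and was below Rpl41 and Rps2 in KO. Rps2 stood at 2519 ± 219 in WT and 2722 ± 149 CPM per kb in KO. Rpl41 was above Rps2 in each of the 6 libraries; in WT the gap between the means was smaller than either SD, and in KO it was larger than either SD. The median over the 75 genes was 710 CPM per kb over all libraries (675 for large and 791 for small subunit genes), although the ribosome holds most of these proteins in equal numbers.

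The lowest levels per length were those of Rps20, Rpl21 and Rpl17 over all libraries, and of Rpl30 in WT. Rpl30 went from 38.9 ± 15.8 in WT to 617 ± 120.4 CPM per kb in KO, and Rpl17 from 132 ± 8.26 to 324 ± 29.1 CPM per kb. Rpl21 stood at 127 ± 26.8 in WT and 169 ± 30.1 CPM per kb in KO, and its own row held only 18.6% to 22.6% of its family in WT and 24.0% to 28.4% in KO. Rps20 stood at 141 ± 6.36 and 150.4 ± 12.6 CPM per kb, but its transcript model has 3706 bases for 357 coding bases, which lowers a value per length. The order of the lowest genes therefore depends on the transcript taken as the length. The fold between the highest and lowest gene, each as the mean of the groups, was 19.4.

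**Figure D5:**
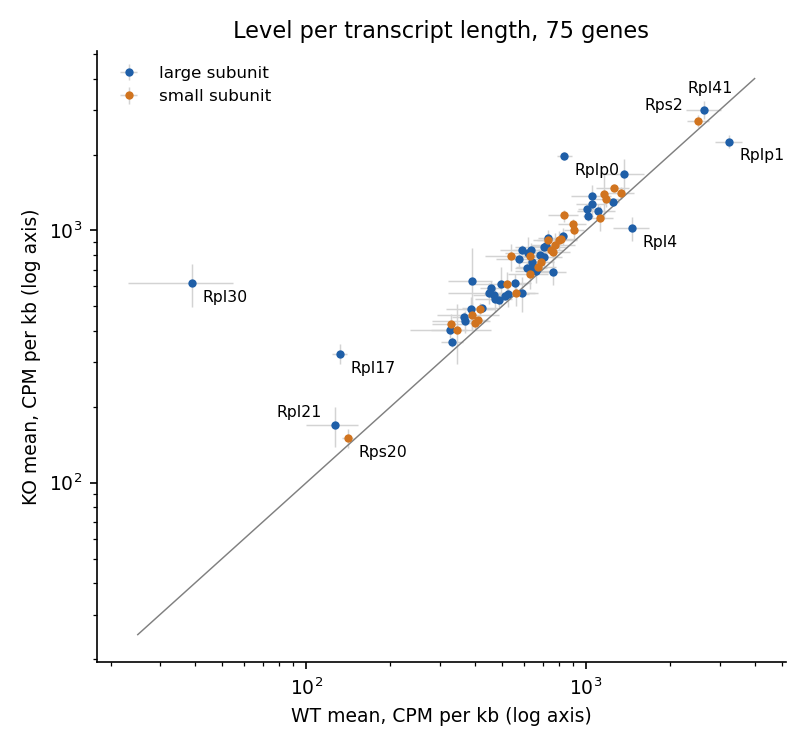
Mean level of each ribosomal protein gene in WT (horizontal) and KO (vertical), in CPM per kb of transcript on log axes, with SD over 3 libraries as grey bars and the line of equal levels; large subunit genes are blue and small subunit genes orange. Most genes lie close to and above the line; Rpl30, Rpl17 and Rplp0 lie far above it, and Rplp1 and Rpl4 lie below it.

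Genes that work with these proteins were examined as lists. Fau, a fusion of a ubiquitin-like protein with a small subunit protein whose symbol the rule does not match, stood at 366, 373 and 317 CPM in WT and at 513, 425 and 481 CPM in KO (log2 fold change 0.43, SE 0.13, adjusted p = 0.1). Of 8 paralogs, 5 were tested and 1 fell: Rps27l, a p53-responsive copy of Rps27, went from 219, 202 and 190.2 CPM in WT to 127, 128 and 142 CPM in KO (log2 fold change -0.62, SE 0.11, adjusted p = 0.0195). Rps27 itself stood at 192, 185 and 164 CPM in WT and at 231, 185 and 222 CPM in KO (log2 fold change 0.24, SE 0.13, adjusted p = 0.34). Of 78 mitochondrial ribosomal protein genes, 3 rose by edgeR (Mrpl33, Mrpl21 and Mrpl4) and 0 fell, where 3.55% of all genes rose and 3.86% fell. DESeq2 called 10 of them higher and 1 lower, against 7.85% and 7.96% of all genes. An unadjusted p under 0.05 was found for 21, against 22.2% of all genes. Groups were separate with KO higher for 25 and lower for 2, against 14.6% and 15.4% of all genes. The median was 0.20, close to the cytosolic median of 0.22.

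Of 14 translation factors and other proteins whose messages carry a TOP tract, 0 passed by edgeR (2 at an unadjusted p under 0.05, 1 called by DESeq2) and the median was 0.21. Eef1b2, an exchange factor of elongation, stood at 365, 327 and 336 CPM in WT and at 453, 450.1 and 469 CPM in KO (log2 fold change 0.42, SE 0.10, adjusted p = 0.0597). Eef1a1, the most abundant of them, stood at 9686, 9127 and 8863 CPM in WT and at 8899.6, 8381 and 8625 CPM in KO (log2 fold change -0.10), so not all TOP genes shared a direction. Npm1, a nucleolar chaperone, varied within both groups. It held 1127, 588 and 612 CPM in WT 1 to 3 and 755, 1512 and 1568 CPM in KO 1 to 3. Its log2 fold change of 0.72 was the highest of the 14. KO 2 and KO 3 stood above all WT libraries, and KO 1 stood above WT 2 and WT 3 but below WT 1. Myc, which drives transcription of ribosomal protein genes, also varied within both groups. It held 108, 38.3 and 38.7 CPM in WT and 34.8, 86.7 and 92.2 CPM in KO (log2 fold change 0.21, SE 0.52, adjusted p = 0.862). For Myc WT 1 was the highest library and KO 1 the lowest. Grwd1, the chaperone of Rpl3, stood at 82.6, 33.4 and 38.6 CPM in WT and at 25.7, 73.2 and 79.3 CPM in KO. In these 3 genes WT 1 was high in its group and KO 1 low. Ribosomal protein genes had WT 1 high as well, but KO 1 stood at the level of WT 1 rather than at that of WT 2 and WT 3.

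For regulators of TOP translation, 0 of 15 tested genes passed by edgeR (3 at an unadjusted p under 0.05, 1 called by DESeq2) and the median was 0.02. Tia1, which binds TOP messages under starvation, stood at 68.4, 88.9 and 91.0 CPM in WT and at 63.0, 56.1 and 53.2 CPM in KO (adjusted p = 0.0799). For factors of ribosomal protein gene transcription, 0 of 11 passed by edgeR or DESeq2 (2 at an unadjusted p under 0.05) and the median was -0.12. For chaperones and importers of ribosomal proteins, 0 of 15 passed by edgeR, by DESeq2 or at an unadjusted p under 0.05, none had separate groups, and the median was 0.11. For ribosome rescue and quality control, 0 of 11 passed in any of these ways and the median was 0.03. Over all genes, 7.4% passed by edgeR in either direction.

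Promoter sequences from RefSeq on GRCm38.p6, 250 bases before to 50 after the gene's start, were found for 55 of the 75 genes and for 26970 other genes. CTTTCC on the transcribed strand between 30 bases before and 50 after the start occurred in 17 of the 55 (30.9%) and in 4.31% of other genes. On the opposite strand it occurred in 1 of 55 (1.82%) against 4.23% of other genes. The split between the subunits was 14 of 34 large and 3 of 21 small subunit genes. CTTCCT in the same window was found in 14 of 55 (25.5%) against 6.87% of other genes on the transcribed strand, and in 5 of 55 (9.09%) against 7.9% on the opposite strand. CCGGAAG, the core of ETS family sites such as those of GABP, occurred on either strand of the whole window in 22 of 55 (40.0%) against 9.87% of other genes; its reverse complement can overlap CTTCC runs. TATAAA on the transcribed strand was found in 9.09% of the 55 and 9.77% of other genes, and on the opposite strand in 3.64% and 7.96%. A match is a description of the sequence and not of a bound site.

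The start of 4 genes shows what the TOP tract looks like. These 30-base windows, from 10 bases before the start to 20 bases from it on, were picked after the tracts were seen. Capitals mark the unbroken pyrimidine run across the annotated start. From the start on lie 9 of its 10 bases in Rps6 and 7 of 9 in Rps27. In Rpl38 8 of 10 do, and in Rpl28 8 of 11. The capitals before the start lie outside the annotated message. They lie at chr4:86857348-86857377 (Rps6, minus strand), chr3:90213629-90213658 (Rps27, minus strand), chr11:114668570-114668599 (Rpl38, plus strand) and chr7:4792955-4792984 (Rpl28, plus strand).
Rps6: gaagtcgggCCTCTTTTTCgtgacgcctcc
Rps27: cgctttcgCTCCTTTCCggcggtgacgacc
Rpl38: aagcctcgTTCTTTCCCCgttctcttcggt
Rpl28: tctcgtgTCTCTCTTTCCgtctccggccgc
None of the 4 passed the test by edgeR. Rps6 had a log2 fold change of 0.33 and Rpl38 0.33, Rps27 0.24 and Rpl28 0.11, each with a standard error of 0.10 to 0.21.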

How the data were processed

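RNA was sequenced from 3 WT and 3 KO libraries with a directional kit, per the labels' protocols. Groups were taken from the sample titles, since the genotype entries of 2 KO libraries name other genes. The authors deposited raw counts per gene symbol, per the file headers; Trim Galore 0.6.6, HISAT2 2.2.1 and a human genome build are named in the submitters' processing notes, although the symbols are mouse, and which program counted the reads, on which strand and with which gene models is not stated there. How reads that fit several copies were placed is therefore not known here.

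Genes were filtered by filterByExpr, scaled by TMM and tested with edgeR 4.0.16 in R 4.3.3 (robust quasi-likelihood test, KO against WT, Benjamini-Hochberg adjustment over 15223 genes, threshold 0.05). DESeq2 1.42.0 and limma 3.58.1 were alternatives, and all were tested on simulated data. CPM values are counts divided by TMM-scaled library sizes. Positions, coding sequences and transcript lengths came from GENCODE M21 (GRCm38). Pseudogene transcripts were matched to coding sequences with blastn 2.17.0 (E-value at most 1e-10, at least 80% identity over at least 0.5 of the pseudogene transcript). Named were the ribosomal protein genes past the threshold, the 3 highest and 3 lowest log2 fold changes in each subunit, up to 10 genes with separate groups per direction, the members of each role described, those on chromosome X and in the chromosome 9 stretch, and the 3 highest and 3 lowest levels per length. Of the pseudogenes the rule covers (at least 5 CPM in a library, in families with a called row) and of longer role lists, only examples are named and the rest are counted; these examples, and genes of other lists, were chosen after their values were seen. A few genes that enter the counts and medians, and the lists that rest on them, are not reported here by name. The members and lists were chosen with earlier results of these data known. Other scalings and filters, joined families, a replicate block and left-out libraries were tried.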

Additional observations from a re-analysis of the deposited data

How the results depend on the processing

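Counts of calls depended on the tool and the libraries. Over all genes, DESeq2 called 1195 higher and 1211 lower, and leaving out WT 1 and KO 1 together gave 3605 and 3803; leaving out 1 library at a time gave 170 to 556 higher and 162 to 660 lower. Among the ribosomal protein genes, 6 were called higher with library sizes alone, 10 with DESeq2, 3 to 8 when 1 library was left out, 57 without WT 1 and KO 1, and 0 with families joined by sequence; 2 were called lower with DESeq2 and 2 without WT 1 and KO 1. For the large subunit the numbers higher were 5, 8, 3 to 6, 38 and 0 in the same order, and 2 were lower with DESeq2 and 2 without WT 1 and KO 1. For the small subunit, 1 was higher with upper-quartile factors, 1 with library sizes alone, 2 with DESeq2, 0 to 2 when 1 library was left out and 19 without WT 1 and KO 1. The median log2 fold change of the small subunit was 0.32 without WT 1 and KO 1. The mean summed level in KO was 32842 CPM for the large and 19711 CPM for the small subunit with scaling that left out ribosomal protein rows, and 19695 CPM for the small subunit with families joined by name.

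The log2 fold change of Rpl12 turned to 0.0113 without WT 1 and KO 1, and that of Rps2 to -0.0416 with families joined by sequence. That of Rps26 turned to 0.0056 with RLE factors and with DESeq2, 0.061 with upper-quartile factors, 0.0576 with library sizes alone, 0.0015 with scaling without ribosomal protein rows, 0.027 when genes under 5 CPM on average were dropped, 0.1772 without WT 1 and KO 1, and 0.033 and 0.0353 with families joined by name and by sequence; with 1 library left out it ranged from -0.074 to 0.0967, being 0.0799 without KO 1. That of Rps7 turned to -0.013 with families joined by name, and to -0.0051 without WT 2, -0.1055 without WT 3 and -0.0768 without KO 3, within a range of -0.1055 to 0.1411 when 1 library was left out. Apart from the values for joined families, where the rows tested differ by construction, the cause was not tested. Of 432 values of 24 of the named genes, 378 kept their direction and side of the threshold, 30 passed it newly, 7 no longer passed and 17 changed sign. Other ribosomal protein genes given with values above, such as Rpl3, Rpl7a and Rpl29, are not in this tally. Among them Rpl29, below 0 with all libraries, was called higher without WT 1 and KO 1.

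With the replicate number as a block, 3 genes were called higher and 5 lower over all genes, and 0 ribosomal protein genes in either direction, 0 of the large subunit. The adjusted p was 0.0868 for Rpl17, 0.0717 for Rpl30 and 0.0949 for Rplp0. Same-numbered libraries deviated from their group means in opposite directions (r = -0.51, -0.31 and -0.22 across genes, which are not independent). Deviations within a group of 3 sum to 0, and WT 1 and KO 1 stood apart from their groups. These values therefore cannot decide whether same-numbered libraries were handled together.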
